A study of Mus musculus with 18 samples.

Results

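Interferon-stimulated genes are the antiviral and antigen-presentation genes that cells switch on when an interferon binds its receptor. The 37 genes described here were listed by name as known interferon targets, and 35 of them could be read on the array among 18193 measured genes. Each was read from its brightest probe set (the set of short probes that reports a transcript) carrying 1 gene symbol. The probe set for Isg15 carries the symbol of a further gene, Gm9706, and no listed probe set names Ifi44, so these 2 have no value here.

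The RNA came from splenic CD4 T cells of mice, isolated by magnetic beads and read on Affymetrix arrays. There were 6 groups of 3 arrays: Gli2A transgenic (Gli2A Tg), Gli2R transgenic (Gli2R Tg) and wild-type (WT) cells, each either stimulated for 6 h through CD3 and CD28 by antibodies or left unstimulated (resting). All 3 genotypes were on the C57BL/6 background and came from mice aged 9 to 15 weeks. Gli2 is a transcription factor of the Hedgehog pathway, and the transgenes are named for its activator (Gli2A) and repressor (Gli2R) forms. The promoter that drives either transgene and the number of founder lines are not given in the sources used here. The Gli2 probe set read log2 4.17 to 6.04 on the 18 arrays, around the lower quartile of gene levels (5.37), and which part of Gli2 the transgenes hold is not stated, so it checks nothing about the labels. The labels do not say whether the 3 arrays of a group came from separate mice, so the p-values reflect the spread among these arrays, which may be technical in part. Cells cultured for 6 h without the antibodies were not analysed here, so stimulation and culture cannot be told apart.

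In background terms, type I interferons (interferon-alpha and interferon-beta) bind the receptor pair Ifnar1 and Ifnar2, whose kinases Jak1 and Tyk2 pass the signal on by phosphorylation. A complex that holds Stat2 and Irf9 then binds the interferon-stimulated response element, or ISRE, before antiviral genes. Interferon-gamma, made by activated T cells and natural killer cells, acts through the receptor chains Ifngr1 and Ifngr2 and switches on an overlapping set, in which the guanylate-binding proteins are prominent. C57BL/6 mice carry a defective Mx1 gene, so its transcript makes no working protein.

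The promoters of the 5 members that differed from WT in resting Gli2A Tg cells are printed here, since they carry the main genotype difference. Each is the 250 bases before the RefSeq start in GRCm38.p6, read 5′ to 3′ in the direction of the gene, with ISRE-like letters in capitals. The motif searched was GAAANNGAAA, or TTTCNNTTTC on the other strand. Rsad2 lies at chr12:26456453-26456702 on the minus strand, Ifit1 at chr19:34640639-34640888 on the plus strand, Oasl2 at chr5:114896684-114896933 on the plus strand, Oas3 at chr5:120777660-120777909 on the minus strand and Ddx60 at chr8:61927837-61928086 on the plus strand. The last 8 bases for Oasl2, 25 for Oas3 and 14 for Ddx60 lie inside the annotated span of the gene, which has an earlier start.
Rsad2: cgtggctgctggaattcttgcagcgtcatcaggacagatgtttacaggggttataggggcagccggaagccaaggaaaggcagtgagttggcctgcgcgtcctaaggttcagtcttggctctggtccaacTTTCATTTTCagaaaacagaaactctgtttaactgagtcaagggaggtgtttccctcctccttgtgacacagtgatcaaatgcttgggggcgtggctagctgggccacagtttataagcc
Ifit1: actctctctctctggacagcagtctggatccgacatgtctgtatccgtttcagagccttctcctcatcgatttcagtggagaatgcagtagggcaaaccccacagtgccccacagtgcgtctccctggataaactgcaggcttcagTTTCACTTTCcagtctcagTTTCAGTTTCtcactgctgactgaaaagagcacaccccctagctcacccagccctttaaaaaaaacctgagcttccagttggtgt
Oasl2: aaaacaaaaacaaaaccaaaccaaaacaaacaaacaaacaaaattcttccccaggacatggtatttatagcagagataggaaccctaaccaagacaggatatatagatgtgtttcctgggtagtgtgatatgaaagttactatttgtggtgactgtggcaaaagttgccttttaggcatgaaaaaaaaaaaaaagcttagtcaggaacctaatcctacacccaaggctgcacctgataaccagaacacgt
Oas3: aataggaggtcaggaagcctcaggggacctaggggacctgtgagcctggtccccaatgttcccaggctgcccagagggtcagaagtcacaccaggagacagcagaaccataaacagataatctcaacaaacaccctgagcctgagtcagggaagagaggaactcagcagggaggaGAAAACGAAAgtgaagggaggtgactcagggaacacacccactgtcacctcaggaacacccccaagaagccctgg
Ddx60: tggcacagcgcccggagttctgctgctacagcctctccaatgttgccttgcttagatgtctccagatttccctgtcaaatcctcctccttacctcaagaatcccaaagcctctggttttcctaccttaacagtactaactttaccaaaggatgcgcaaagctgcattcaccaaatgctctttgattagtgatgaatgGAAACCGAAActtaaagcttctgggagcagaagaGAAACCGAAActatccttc
Rsad2 and Oas3 hold 1 match each, Ifit1 and Ddx60 hold 2 each, and Oasl2 holds 0. The match in Rsad2 begins at position -120 from the start, those in Ifit1 at -104 and -85, that in Oas3 at -75 and those in Ddx60 at -53 and -19. Promoter windows were available for 26 of the 37 genes, and 12 of them held the motif (46.2%), against 3.46% of 27025 genes and 2.98% of 32851 windows in all. The other members with it were Ifit3, Oas1a, Isg15, Gbp2, Gbp3, Bst2, Trim30a and Ifi203. The Gli consensus GACCACCCA (TGGGTGGTC on the other strand) was in 0 of the 26 and in 0.255% of all genes. With a share this low, 0 of 26 would be usual for any genes, so the absence says nothing about Gli binding. A match describes the letters in this window and is not a shown binding site.

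Levels are given as log2 of the deposited intensity plus 16, after quantile normalization. They rank arrays for 1 gene, not genes against each other. Of the 35 members, 31 had a mean over all arrays above the median of all genes (7.06) and 23 above the 75th percentile (9.73), and only Mx2 lay below the 25th (mean 4.68). The RNA is from bulk cells, so fewer cells of a type and less RNA per cell cannot be told apart. T cell markers had a median over 8 genes of 12.42 to 13.65 on the arrays, which does not give the share of T cells. In resting Gli2A Tg cells this median was 12.95 to 13.54 and the log2 of the summed level 16.17 to 16.60. For 13 markers of macrophages and other myeloid cells the values there were 12.21 to 12.43 and 16.78 to 16.89. Of the T cell markers, Cd3e, Cd3d and Cd3g fell with stimulation in every genotype. In WT cells Cd4, Cd5 and Thy1 fell too, while Cd2 (0.09) and Cd28 (0.23) did not. In Gli2A Tg cells the means of Cd5 and Cd28 were higher after stimulation, at 12.77 and 13.18 against 12.60 and 12.22. Those of Cd2, Cd4 and Thy1 were lower. On the second principal component the array set apart was resting Gli2A Tg replicate 3, and on the third it was stimulated Gli2A Tg replicate 2. The stimulated one also had an actin 3′ to 5′ probe ratio of 2.996, a sign of RNA quality, against 1.26 to 1.82 on the others. For some of the results that rest on these arrays, values without them are given below. Transcripts of the Y chromosome were high on 2 stimulated Gli2R Tg arrays, 1 stimulated WT array and 2 resting WT arrays of 3 each, and on no other, so sex is not balanced between genotypes and the arrays of those 3 groups are not all repeats of 1 RNA.

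**Figure D1:**
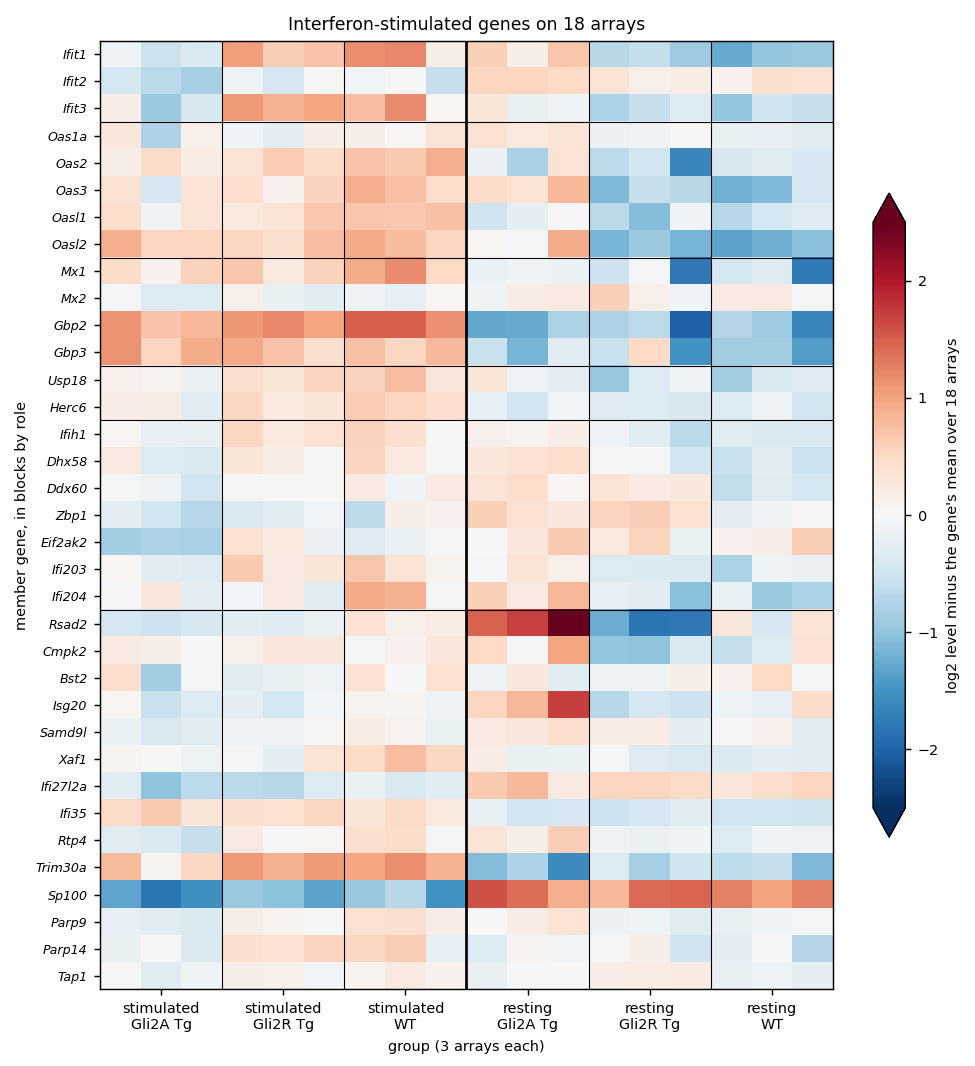
Heat map of the 35 measured interferon-stimulated genes (rows, in blocks by role) on 18 arrays (columns, 3 per group, stimulated left and resting right). Colour is the log2 level minus the gene's mean over the 18 arrays. Rsad2 is highest on the 3 resting Gli2A Tg arrays and lowest on the 3 resting Gli2R Tg arrays, Gbp2 and Trim30a are higher on the stimulated than on the resting arrays of every genotype, and Sp100 is lower on them.

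With stimulation, more interferon-stimulated genes fell than rose in Gli2A Tg cells, and more rose than fell in Gli2R Tg and WT cells. A member was called at a Benjamini-Hochberg adjusted p under 0.05 over all 18193 genes in limma. In Gli2A Tg cells 4 of 35 rose and 13 fell with a median difference of -0.36 (log2, stimulated minus resting), where 20.2% of all genes rose and 22.8% fell. In Gli2R Tg cells 17 rose and 3 fell with a median of 0.56, where 19.8% of all genes rose and 22.5% fell. In WT cells 23 rose and 3 fell with a median of 0.67, where 19.7% of all genes rose and 22% fell. The median over all genes was between 0 and 0.01 in each. The counts by role below are to be read beside these same shares of all genes.

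The IFIT family, of which Ifit1 binds viral RNA that lacks marks of the host cap, split between members. Ifit1 was at 10.14, 9.71 and 9.88 in stimulated and at 10.84, 10.39 and 10.95 in resting Gli2A Tg cells. In Gli2R Tg cells it was at 11.29, 10.85 and 10.97 after stimulation and at 9.56, 9.64 and 9.33 at rest, and in WT cells at 11.40, 11.45 and 10.40 and at 8.99, 9.28 and 9.32. All stimulated arrays lay below the resting ones in Gli2A Tg and above them in the other genotypes. The difference was -0.81 ± 0.25 (SE; adjusted p = 0.0153) in Gli2A Tg, 1.52 ± 0.25 (adjusted p = 0.000133) in Gli2R Tg and 1.88 ± 0.25 (adjusted p = 1.82e-05) in WT cells. The Gli2A Tg call was lost without resting replicate 1 (-0.76, adjusted p = 0.0502), resting replicate 3 (-0.70, adjusted p = 0.0609) or stimulated replicate 2 (-0.71, adjusted p = 0.0600), and was -0.60 (adjusted p = 0.154) without both of the arrays that stood apart. Ifit3 was at 10.44, 9.34 and 9.87 in stimulated and 10.57, 10.08 and 10.17 in resting Gli2A Tg cells, which overlap. In Gli2R Tg cells it was at 11.33, 11.13 and 11.25 against 9.48, 9.70 and 9.92, and in WT cells at 11.04, 11.46 and 10.32 against 9.31, 9.78 and 9.69, without overlap. Ifit3 rose by 1.54 ± 0.29 in Gli2R Tg and 1.35 ± 0.29 in WT cells, and its difference in Gli2A Tg cells was -0.39 ± 0.29. Ifit2 instead fell by 1.17 ± 0.17 in Gli2A Tg and by 0.51 ± 0.17 (adjusted p = 0.0252) in WT cells. The WT call for Ifit2 was lost without resting replicate 2 (-0.45), resting replicate 3 (-0.48) or stimulated replicate 3 (-0.33).

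The OAS family holds enzymes that make the oligoadenylate messenger that activates RNase L, and related proteins. None of its 5 members passed the test with stimulation in Gli2A Tg cells, while 4 rose in Gli2R Tg and 4 in WT cells. Oasl2 was at 9.98, 9.60 and 9.61 in stimulated and 9.12, 9.03 and 9.9995 in resting Gli2A Tg cells. It was at 9.59, 9.47 and 9.85 against 7.91, 8.15 and 7.91 in Gli2R Tg cells, and at 10.02, 9.87 and 9.62 against 7.75, 7.85 and 8.02 in WT cells. The stimulated levels of the 3 genotypes thus overlapped, and of the resting Gli2A Tg arrays replicate 3, which stood apart, lay within their range and the other 2 lay below it. The rise was 1.65 ± 0.22 (adjusted p = 2.07e-05) in Gli2R Tg and 1.96 ± 0.22 (adjusted p = 3.71e-06) in WT cells, against 0.35 ± 0.22 in Gli2A Tg cells. Oas3 was at 9.20, 8.41 and 9.14 after stimulation and 9.27, 9.17 and 9.66 at rest in Gli2A Tg cells. In Gli2R Tg cells it was at 9.24, 8.94 and 9.40 against 7.72, 8.24 and 8.14, and in WT cells at 9.73, 9.57 and 9.26 against 7.61, 7.72 and 8.40. It rose by 1.16 ± 0.26 in Gli2R Tg and by 1.61 ± 0.26 in WT cells, where the arrays did not overlap, and differed by -0.45 ± 0.26 in Gli2A Tg cells. Oas2 rose by 1.40 in Gli2R Tg and 1.13 in WT cells and Oasl1 by 1.04 and 1.18, while Oas1a passed in neither.

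**Figure D2:**
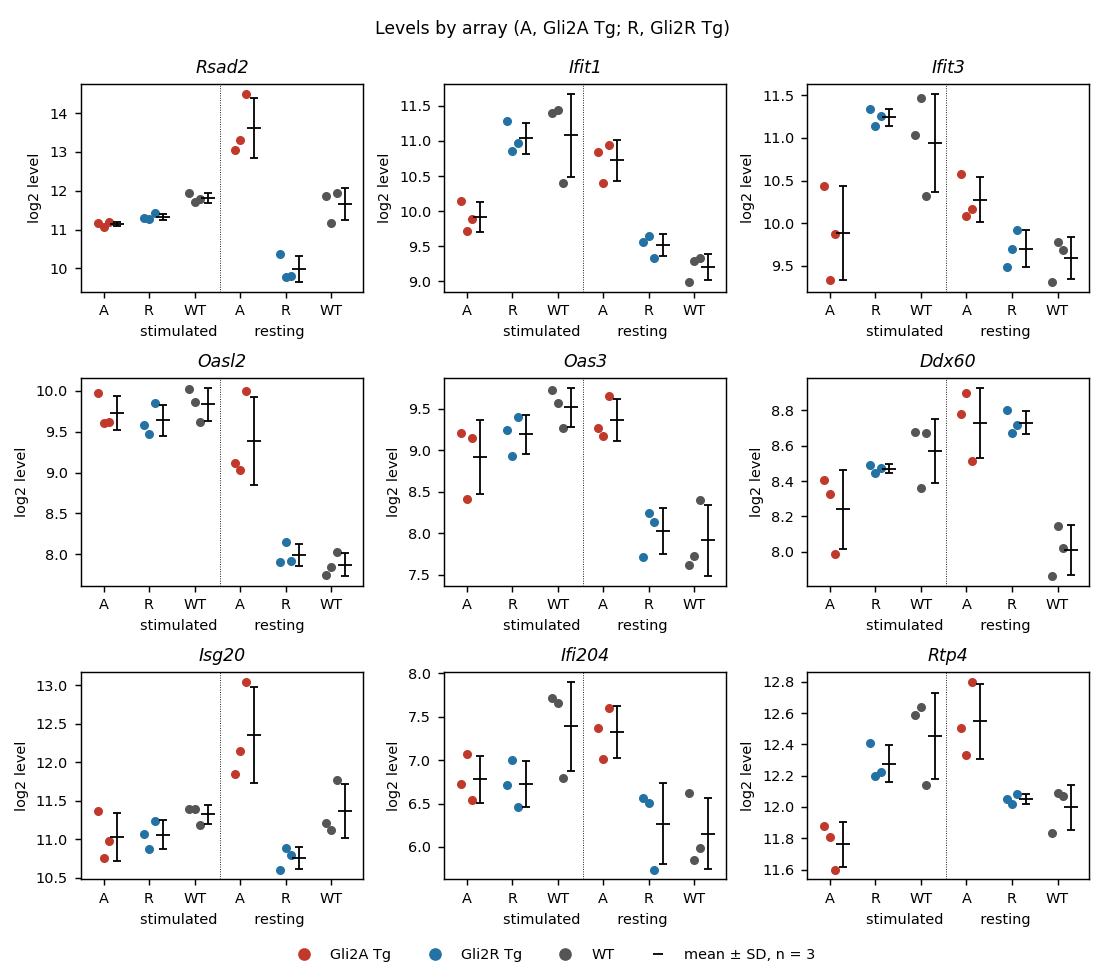
Log2 level of 9 interferon-stimulated genes on each array (points) with the mean ± SD of the 3 arrays beside them, for stimulated cells left and resting cells right of the dotted line. The resting Gli2A Tg arrays lie above the resting WT arrays in all 9 panels. The stimulated Gli2A Tg arrays are below the stimulated WT arrays without overlap for Rsad2, Ifit1, Oas3 and Rtp4. Each panel has its own axis range.

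Among the large GTPases, Gbp2 and Gbp3 rose in every genotype and Mx1 in Gli2R Tg and WT cells. Gbp2, a guanylate-binding protein that attacks pathogen vacuoles, rose by 1.999 ± 0.31 in Gli2A Tg, 2.24 ± 0.31 in Gli2R Tg and 2.47 ± 0.31 in WT cells, which is 3.996-fold, 4.74-fold and 5.53-fold. Gbp3 rose by 1.52, 1.21 and 1.73 in the same genotypes. Mx1 rose by 1.29 ± 0.40 (adjusted p = 0.0177) in Gli2R Tg and 1.71 ± 0.40 (adjusted p = 0.00284) in WT cells, against 0.52 ± 0.40 in Gli2A Tg cells. The Gli2R Tg call for Mx1 was lost without resting replicate 3 (0.78) or stimulated replicate 1 (1.19). Mx2, near the floor of the scale, passed in none.

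The ISG15 system is represented by Usp18, the protease that removes ISG15 and restrains the receptor, and Herc6, the ligase that attaches it in mice. Usp18 rose by 0.88 in Gli2R Tg and 1.06 in WT cells and Herc6 by 0.71 and 0.85, while their differences in Gli2A Tg cells were 0.04 and 0.28.

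Of the 7 nucleic acid sensors, 0 rose and 4 fell with stimulation in Gli2A Tg cells, 2 rose and 1 fell in Gli2R Tg cells and 5 rose in WT cells. Ifih1, the sensor of long double-stranded RNA also called MDA5, rose by 0.72 in Gli2R Tg and 0.67 in WT cells and differed by -0.24 in Gli2A Tg cells. Ddx60, a helicase reported to assist RNA sensing, fell by 0.49 ± 0.15 (adjusted p = 0.0136) in Gli2A Tg cells and rose by 0.56 ± 0.15 in WT cells. Its other probe set was on the opposite side of 0 in Gli2A Tg cells (0.21). Zbp1, a sensor of Z-form nucleic acid, fell by 0.88 ± 0.20 in Gli2A Tg cells and by 0.75 ± 0.20 in Gli2R Tg cells. The Gli2R Tg call for Zbp1 was lost with the mean of its probe sets (-0.76, adjusted p = 0.0809). Ifi204, a DNA sensor of the mouse, was at 6.73, 7.07 and 6.54 in stimulated and 7.37, 7.01 and 7.60 in resting Gli2A Tg cells, and at 6.71, 7.0027 and 6.47 against 6.57, 6.50 and 5.73 in Gli2R Tg cells. In WT cells it was at 7.71, 7.66 and 6.80 against 6.62, 5.86 and 5.99. It rose by 1.24 ± 0.30 in WT cells, where the arrays did not overlap, and its arrays overlapped in the other genotypes. Eif2ak2, the kinase that halts translation on double-stranded RNA, fell by 1.12 ± 0.21 in Gli2A Tg cells. Its probe sets disagreed in Gli2R Tg and WT cells, where they spanned -0.06 to 1.11 and -0.48 to 1.62. Dhx58, a regulator of RNA sensing, fell by 0.52 in Gli2A Tg and rose by 0.71 in WT cells, with probe sets on both sides of 0 in each.

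Among the 14 other effectors, 2 rose and 7 fell in Gli2A Tg, 4 rose and 2 fell in Gli2R Tg and 7 rose and 2 fell in WT cells. Rsad2, or viperin, makes an antiviral nucleotide that stops viral polymerases. It was at 11.17, 11.07 and 11.19 in stimulated and 13.06, 13.31 and 14.50 in resting Gli2A Tg cells. It was at 11.31, 11.27 and 11.42 against 10.36, 9.77 and 9.80 in Gli2R Tg cells, and at 11.95, 11.71 and 11.78 against 11.87, 11.17 and 11.93 in WT cells. The stimulated arrays were thus all below, all above and overlapping with the resting ones in the 3 genotypes. The difference was -2.48 ± 0.30 (5.56-fold lower, adjusted p = 7.40e-06) in Gli2A Tg, 1.35 ± 0.30 (adjusted p = 0.00180) in Gli2R Tg and 0.15 ± 0.30 (adjusted p = 0.735) in WT cells. Rsad2 has 3 probe sets, which spanned -0.11 to 1.35 in Gli2R Tg and -0.87 to 0.15 in WT cells, and the Gli2R Tg call was lost with their mean (0.65, adjusted p = 0.0944). Cmpk2, a nucleotide kinase whose gene is the neighbour of Rsad2 on chromosome 12, rose by 1.01 ± 0.26 in Gli2R Tg cells, but its 2 probe sets spanned -0.45 to 1.01.

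Isg20, an RNA exonuclease, was at 11.37, 10.76 and 10.97 in stimulated and 11.85, 12.15 and 13.05 in resting Gli2A Tg cells and fell by 1.31 ± 0.27 (adjusted p = 0.000794). Without the pair of arrays that stood apart the difference was -0.83 (adjusted p = 0.0115). Its Gli2R Tg arrays (11.07, 10.88 and 11.24 against 10.60, 10.89 and 10.79) and WT arrays (11.39, 11.39 and 11.18 against 11.20, 11.12 and 11.77) overlapped between conditions. Rtp4, reported as a brake on the interferon response in mice, was at 11.88, 11.81 and 11.60 against 12.51, 12.33 and 12.80 in Gli2A Tg cells and fell by 0.79 ± 0.16. It was at 12.41, 12.20 and 12.22 against 12.05, 12.02 and 12.08 in Gli2R Tg cells and at 12.59, 12.64 and 12.14 against 11.83, 12.09 and 12.07 in WT cells, where it rose by 0.46 ± 0.16 (adjusted p = 0.0306). Sp100, a nuclear body protein, fell in all genotypes, by 2.86 ± 0.24 in Gli2A Tg, 2.33 ± 0.24 in Gli2R Tg and 2.23 ± 0.24 in WT cells. Ifi27l2a, a mitochondrial membrane protein, likewise fell by 1.20, 1.09 and 0.69. The WT fall of Ifi27l2a was 0.32 (adjusted p = 0.176) with median centring in place of quantile normalization. Ifi35 rose by 0.83, 0.85 and 0.81 in Gli2A Tg, Gli2R Tg and WT cells. Trim30a, a regulator of innate signalling in mice, rose by 1.60, 1.56 and 1.78 at its brightest probe set. Its other probe set was on the opposite side of 0 (-1.05, -0.48 and -0.09), and the mean of both gave 0.28 (adjusted p = 0.221), 0.54 and 0.84.

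**Figure D3:**
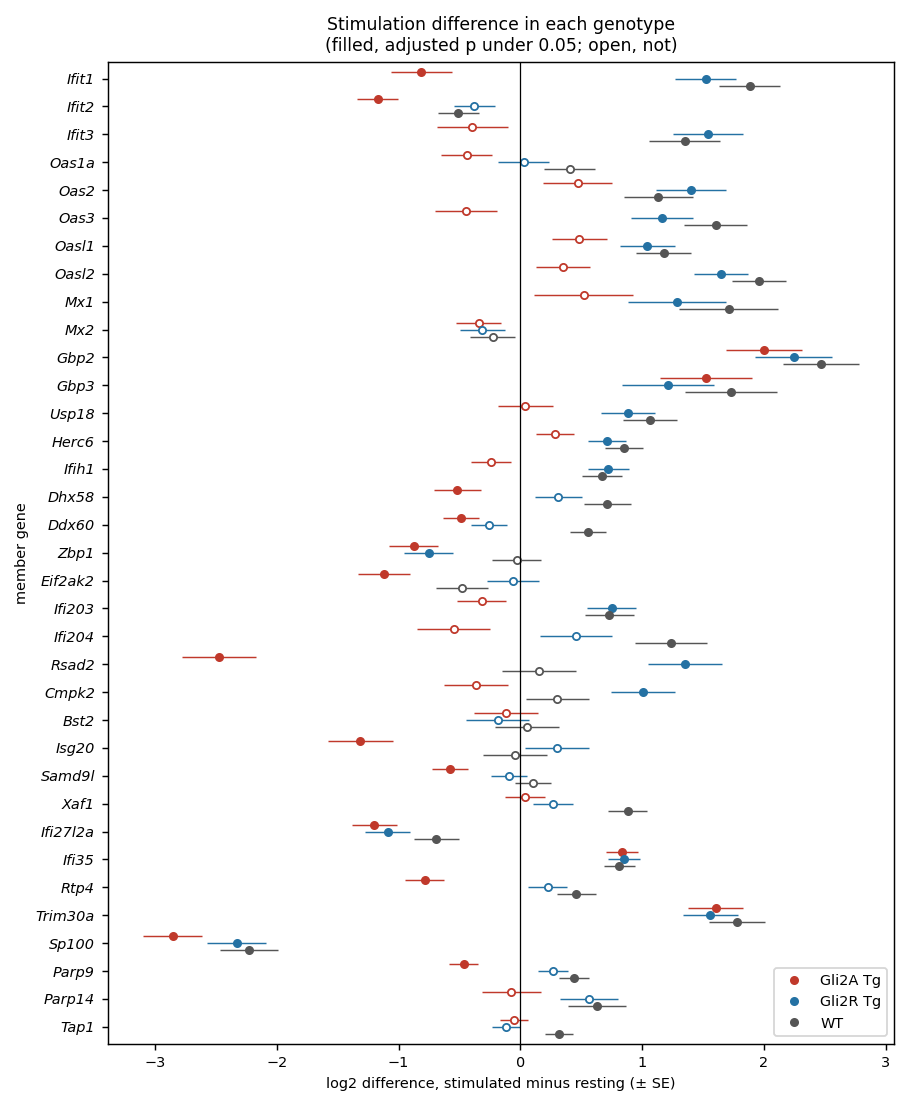
Log2 difference, stimulated minus resting, with its SE for the 35 measured members in Gli2A Tg (red), Gli2R Tg (blue) and WT cells (grey). Filled points passed the test. In Gli2A Tg cells 4 filled points lie right of 0 and 13 left, against 17 and 3 in Gli2R Tg and 23 and 3 in WT cells.

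In resting cells, 5 of the 35 interferon-stimulated genes were higher in Gli2A Tg than in WT cells and 0 were lower, where 0.412% of all genes rose and 0.137% fell. The median difference was 0.38, against 0.01 over all genes, and 31 members had a difference above 0 and 4 (Mx2, Gbp2, Bst2 and Trim30a) below. In 20 members all 3 Gli2A Tg arrays lay above all 3 WT arrays, as in 8.86% of all genes, and in 0 members all lay below. The 5 that passed had different roles. They were Rsad2, the nucleotide-making enzyme, Ifit1, an RNA binder, Oasl2 and Oas3 of the OAS family and Ddx60, the helicase. Not all of them held under other settings, as given below.

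Rsad2 rose 3.90-fold (1.96 ± 0.30, adjusted p = 0.00635), with means of 13.62 ± 0.77 in Gli2A Tg and 11.66 ± 0.42 in WT cells (SD, n = 3 each). Oasl2 rose 2.85-fold (1.51 ± 0.22, adjusted p = 0.00426), Ifit1 2.88-fold (1.53 ± 0.25, adjusted p = 0.0116) and Oas3 2.74-fold (1.45 ± 0.26, adjusted p = 0.0199). Ddx60 was at 8.78, 8.90 and 8.51 in Gli2A Tg cells, at 8.80, 8.67 and 8.71 in Gli2R Tg cells and at 7.86, 8.15 and 8.02 in WT cells. At this probe set both transgenic genotypes lay above WT without overlap and overlapped with each other. Its rise in Gli2A Tg cells was 0.72 ± 0.15 (adjusted p = 0.0433). The other Ddx60 probe set differed by 0.19 in Gli2A Tg and -0.04 in Gli2R Tg against WT cells, and the mean of both gave 0.45 (adjusted p = 0.358) in Gli2A Tg cells. Ifit3, Ifi204, Isg20 and Rtp4 had differences of 0.68, 1.17, 0.98 and 0.55, in each with the 3 Gli2A Tg arrays above the WT arrays, and did not pass the test (adjusted p = 0.428, 0.121, 0.146 and 0.184).

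Over 28 alternative settings the difference of Rsad2 ranged between 1.52 and 2.24 and that of Oasl2 between 1.20 and 1.69. Fitted on the 6 arrays compared alone, 0 members passed. Leaving out resting Gli2A Tg replicate 3, or either of WT replicates 1 and 2 at rest, gave 3 members. The first of these leave-outs gave Ifit1 at 1.42 (adjusted p = 0.0564), with Rsad2 and Oasl2 still past the test. Oas3 missed the threshold in each of the 3, at 1.31 (adjusted p = 0.0836) without the Gli2A Tg array and at 1.30 (adjusted p = 0.0787) and 1.36 (adjusted p = 0.113) without WT replicate 1 and replicate 2. Ddx60 missed the threshold in 22 of the 28 settings. With sex as a covariate, an alternative added after the data were seen, Oasl2 and Ifit1 passed, and Rsad2 (1.86, adjusted p = 0.0581), Oas3 (1.39, adjusted p = 0.123) and Ddx60 (0.65, adjusted p = 0.228) did not.

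Markers of macrophages and other myeloid cells, neutrophils apart, moved with this difference. On the resting arrays the log2 of their summed level over 13 genes was 16.78 to 16.89 in Gli2A Tg, 15.56 to 15.9992 in Gli2R Tg and 16.06 to 16.68 in WT cells, and no marker was at 0. In resting Gli2A Tg against WT, 12 of the 13 had a difference above 0 with a median of 0.54, and 0 passed the test. The erythroid markers were at a summed log2 level of 14.17 to 15.48 in Gli2A Tg, 11.14 to 12.40 in Gli2R Tg and 13.59 to 14.21 in WT cells, and by their median were highest on Gli2A Tg replicate 3 (13.30). Plasmacytoid dendritic cell markers are of the cell type known for making most type I interferon. Their summed log2 level was 10.45 to 10.85 in Gli2A Tg, 10.77 to 11.15 in Gli2R Tg and 10.76 to 10.97 in WT cells. The sum is carried by its brightest genes, in resting Gli2A Tg cells Ccr9 (mean 9.43), Tcf4 (8.55) and Klk1 (8.49), and little by Siglech (6.48). With stimulation in WT cells Ccr9 fell by 3.24 and Klk1 rose by 1.85. The sum therefore need not follow the number of these cells. Against WT in resting Gli2A Tg cells, Ccr9 differed by -0.61, Siglech by 0.59, Tcf4 by 0.38, Klk1 by 0.06 and Cox6a2 by 0.05. None of these passed the test. B cell markers were at a summed log2 level of 11.00 to 11.88 in Gli2A Tg, 10.29 to 11.04 in Gli2R Tg and 10.32 to 10.76 in WT cells. Of these 6 B cell markers 5 had a difference above 0 in Gli2A Tg against WT, with a median of 0.57, and 0 passed the test. On the neutrophil list the summed log2 level was 9.61 to 11.42 in Gli2A Tg and 10.62 to 12.16 in WT cells. In Gli2R Tg cells it was 8.90 to 9.80. S100a8, S100a9, Ngp and Ltf differed from WT by -1.19, -0.83, -0.47 and -0.12 in Gli2A Tg cells, and Camp by 0.12. None of these neutrophil markers passed the test. The part of these cells in the result was not tested. After stimulation 12 of the 13 myeloid markers fell in each genotype, with medians of -4.57 in Gli2A Tg, -5.39 in Gli2R Tg and -5.25 in WT cells, so resting and stimulated samples differ in myeloid RNA.

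**Figure D4:**
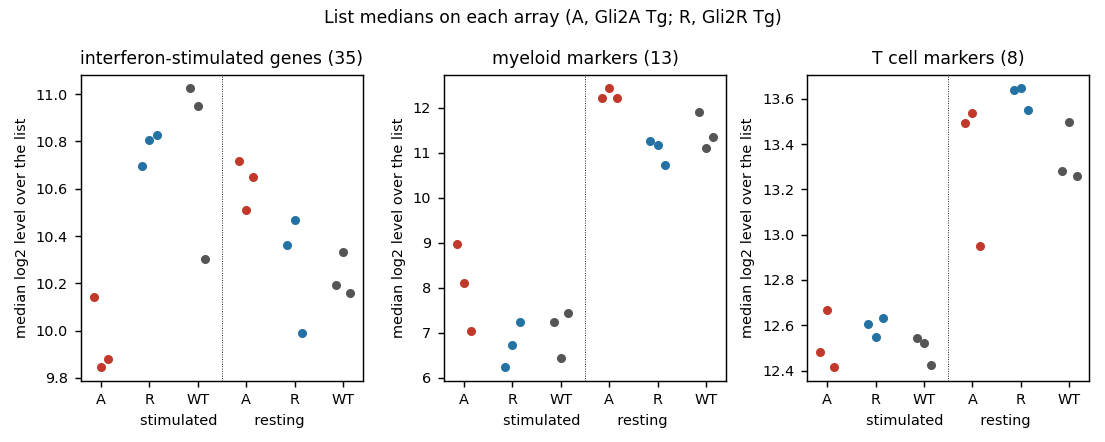
Median log2 level on each array (points) over 35 interferon-stimulated genes, 13 myeloid markers and 8 T cell markers, with stimulated arrays left and resting arrays right of the dotted line. The 3 resting Gli2A Tg arrays lie above the other resting arrays for the interferon-stimulated genes (10.51 to 10.72 against 9.99 to 10.47 in Gli2R Tg and 10.16 to 10.33 in WT) and for the myeloid markers (12.21 to 12.43 against 10.72 to 11.27 and 11.12 to 11.90). Each panel has its own axis range.

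Between resting Gli2R Tg and WT cells 0 of 35 members passed the test, in which limma called 0% of all genes higher and 0% lower. The median over members was 0.06, and 6 of 35 and 10.3% of all genes had an unadjusted p under 0.05. Rsad2 was nearest to the threshold, with all Gli2R Tg arrays below all WT arrays and a difference of -1.68 ± 0.30 (adjusted p = 0.0774). It passed without resting Gli2A Tg replicate 3, an array outside this comparison that adds to the shared spread (adjusted p = 0.0154), as did Ddx60 (adjusted p = 0.0370). In the full fit Ddx60 (0.72 ± 0.15, adjusted p = 0.106) and Tap1 (0.37 ± 0.12, adjusted p = 0.274), a subunit of the transporter that supplies class I molecules with peptide, came next, with all Gli2R Tg arrays above WT. Of the 13 myeloid markers 12 had a difference below 0 here, with a median of -0.49 and 0 past the test, and their part in the result was not tested.

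Resting Gli2A Tg cells differed from Gli2R Tg cells in 6 members, all higher, and 0 were lower, where 1.57% of all genes were higher and 0.83% lower. The median was 0.36, and in 16 members all 3 Gli2A Tg arrays lay above the Gli2R Tg arrays, as in 11% of all genes. Rsad2 was 12.5-fold higher (3.64 ± 0.30, adjusted p = 2.00e-05). Isg20 was higher by 1.59 ± 0.27 (adjusted p = 0.00568), Oasl2 by 1.39 ± 0.22 (adjusted p = 0.00430), Oas3 by 1.33 ± 0.26 (adjusted p = 0.0140) and Ifit1 by 1.21 ± 0.25 (adjusted p = 0.0202). Cmpk2 was at 10.32, 9.79 and 10.80 in Gli2A Tg against 8.84, 8.81 and 9.43 in Gli2R Tg cells, higher by 1.27 ± 0.26 (adjusted p = 0.0197), and its WT arrays (9.24, 9.46 and 10.18) overlapped both. This comparison shares the Gli2A Tg arrays with the one against WT. On the compared arrays alone 1 member passed, and without resting Gli2A Tg replicate 3 or resting Gli2R Tg replicate 1 there were 3. Without that Gli2A Tg array Oas3 (1.19, adjusted p = 0.0742), Cmpk2 (1.03, adjusted p = 0.0965) and Ifit1 (1.10, adjusted p = 0.0965) missed the threshold. Of the 13 myeloid markers, 2 passed as higher here, Adgre1 (1.48) and Mpeg1 (1.30), with a median of 1.14 over the list. The erythroid markers Alas2 (4.18) and Slc4a1 (3.80) passed as higher too. Their part in the result was not tested.

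After stimulation the members lay lower in Gli2A Tg than in WT cells, but none passed the test. The adjusted p was under 0.05 for 0 of 35 in limma, where 0.0934% of all genes were higher and 0.044% lower, and 17 of 35 members and 11.4% of all genes had an unadjusted p under 0.05. The median was -0.48, against 0.01 over all genes, and 32 members had a difference below 0. In 16 members all 3 Gli2A Tg arrays lay below the WT arrays, as in 8.65% of all genes. Nearest to the threshold were Parp9, a partner of the ubiquitin ligase Dtx3l (-0.61 ± 0.12, adjusted p = 0.0655), Ifit1 (-1.17 ± 0.25, adjusted p = 0.0787) and Rtp4 (-0.70 ± 0.16, adjusted p = 0.0924). Parp9 passed without resting Gli2A Tg replicate 3 (adjusted p = 0.0436), and Ifit1 without stimulated WT replicate 3 (-1.51, adjusted p = 0.0184). That WT array was the lowest of its group for Ifit1, Ifit3, Ifi204 and Rtp4. In these stimulated cells the myeloid markers had a summed log2 level of 11.22 to 12.61 in Gli2A Tg, 10.71 to 10.97 in Gli2R Tg and 10.97 to 11.36 in WT cells.

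Stimulated Gli2R Tg cells and WT cells differed in 0 of 35 members in limma, where 0.0165% of all genes were higher and 0.0275% lower, and 2 of 35 members and 9.21% of all genes had an unadjusted p under 0.05. The lowest p-values were those of Xaf1, a pro-apoptotic factor (-0.58 ± 0.16, adjusted p = 0.255), Ifi204 (-0.66 ± 0.30, adjusted p = 0.519) and Parp9 (-0.24 ± 0.12, adjusted p = 0.595). The median was -0.11.

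Stimulated Gli2A Tg against Gli2R Tg cells gave 0 of 35 members as well, where 0.198% of all genes were higher and 0.033% lower, and 10 of 35 members and 9.16% of all genes had an unadjusted p under 0.05. The median was -0.22, and in 15 members all 3 Gli2A Tg arrays lay below, as in 7.43% of all genes. Ifit3 (-1.36 ± 0.29, adjusted p = 0.0671), Eif2ak2 (-0.97 ± 0.21, adjusted p = 0.0753) and Ifit1 (-1.12 ± 0.25, adjusted p = 0.0753) had the lowest p-values. Ifit3 passed without stimulated WT replicate 3 (adjusted p = 0.0437) or stimulated Gli2A Tg replicate 1 (-1.64, adjusted p = 0.0462), and Ifit1 passed without the first of these (adjusted p = 0.0190).

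Set side by side, the resting and the stimulated difference of Gli2A Tg from WT have opposite signs for most members, and they come from separate arrays. In 28 of 35 members (80%) the Gli2A Tg mean was above WT at rest and below WT after stimulation, against 24.8% of all genes. It was above in both for 3 members, below in both for 4 and below then above for 0. Within each condition all members were read on the same arrays, so they are not 35 separate observations.

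**Figure D5:**
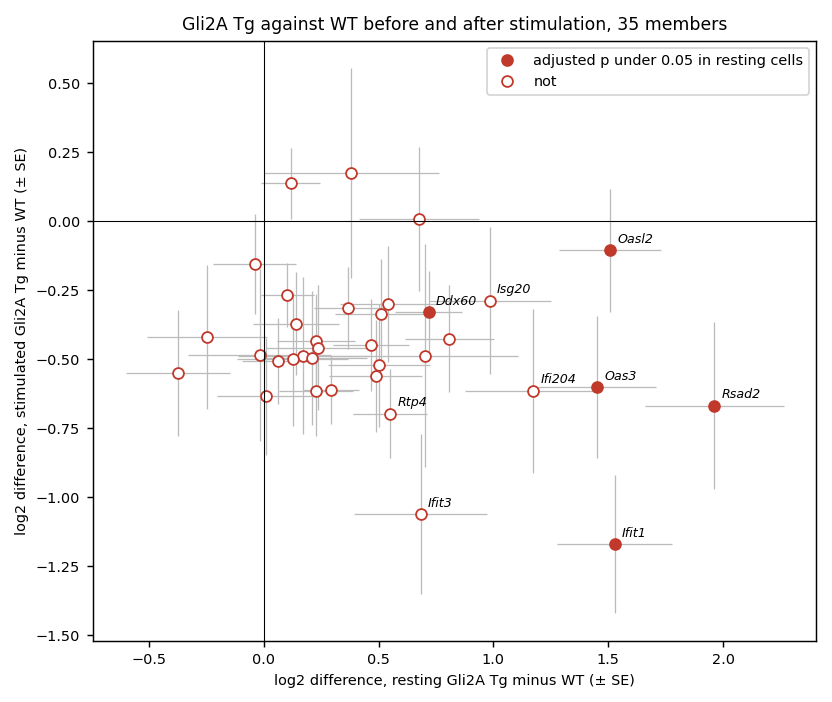
Log2 difference, Gli2A Tg minus WT, in resting cells (horizontal) and in stimulated cells (vertical) with the SE of each, for 35 interferon-stimulated genes. Filled points passed the test in resting cells. In the lower right part, above WT at rest and below WT after stimulation, lie 28 of the 35.

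The test of the difference itself compared the stimulation effect between genotypes. In Gli2A Tg minus WT, 34 of 35 members were below 0 with a median of -0.84, against 0.00 over all genes, and 1 passed as lower and 0 as higher, where 0% of all genes were higher and 0.011% lower. That member was Ifit1, at -2.70 ± 0.35 (adjusted p = 0.0167). It missed the threshold without resting WT replicate 2 (adjusted p = 0.0595) or stimulated Gli2A Tg replicate 3 (adjusted p = 0.0773), on the arrays of these genotypes alone (adjusted p = 0.0838), and without both arrays that stood apart (-2.49, adjusted p = 0.0937). Leaving out resting WT replicate 3, resting Gli2A Tg replicate 1, resting Gli2A Tg replicate 3 or stimulated WT replicate 3 gave 2 members in each case. The next largest differences did not pass: Rsad2 (-2.63 ± 0.43, adjusted p = 0.0736), Oas3 (-2.05 ± 0.36, adjusted p = 0.0736), Ifi204 (-1.79 ± 0.42, adjusted p = 0.163), Ifit3 (-1.74 ± 0.41, adjusted p = 0.163), Oasl2 (-1.61 ± 0.31, adjusted p = 0.0919), Isg20 (-1.27 ± 0.37, adjusted p = 0.258) and Rtp4 (-1.25 ± 0.23, adjusted p = 0.0736). Among the genes above the median level 8 members passed, and with a pseudocount of 64 there were 7.

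In Gli2A Tg minus Gli2R Tg, 2 members were lower and 0 higher, where 0.033% of all genes were higher and 0.077% lower. They were Rsad2 (-3.83 ± 0.43, adjusted p = 0.00438) and Ifit1 (-2.34 ± 0.35, adjusted p = 0.0186), and the median over members was -0.73. Rsad2 differed between these genotypes by 3.64 at rest and by -0.19 after stimulation, so its value comes mostly from the resting cells. Ifit1 missed the threshold without resting Gli2A Tg replicate 3 (adjusted p = 0.0546), resting Gli2R Tg replicate 2 (adjusted p = 0.0503), stimulated Gli2A Tg replicate 2 (adjusted p = 0.0743) or stimulated Gli2R Tg replicate 1 (adjusted p = 0.0653). In Gli2R Tg minus WT, 0 of 35 members passed in limma, where 0% of all genes were higher and 0% lower, and 5 of 35 members and 8.65% of all genes had an unadjusted p under 0.05. The median was -0.20, and Ddx60 (-0.82 ± 0.21, adjusted p = 0.285), Rsad2 (1.20 ± 0.43, adjusted p = 0.434) and Xaf1 (-0.61 ± 0.23, adjusted p = 0.461) had the lowest p-values. These 3 comparisons share arrays and are not independent.

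The rest of the interferon pathway was read from 8 lists of 77 genes, of which 62 were measured. With stimulation, 20.2% of all genes rose and 22.8% fell in Gli2A Tg cells. These shares were 19.8% and 22.5% in Gli2R Tg and 19.7% and 22% in WT cells. The list counts given below are to be read beside them, and a count near these shares is not a result about the list. Among the ligands, Ifng rose by 6.12 ± 0.47 in Gli2A Tg, 2.73 ± 0.47 in Gli2R Tg and 5.26 ± 0.47 in WT cells, and was the one ligand of 10 to rise in every genotype. The 8 measured interferon-alpha and interferon-beta genes lay between 4.14 and 6.61 on all arrays, below the median gene level. Of these, Ifna5 fell by 0.89 in Gli2A Tg (means 5.33 to 4.44) and Ifnab rose by 1.32 in Gli2R Tg cells (4.67 to 5.99). Both are near the floor of the scale, where the lower quartile of gene levels was 5.37. The ligand Ifnz was not near it. At rest its mean was 7.77 in Gli2A Tg, 7.48 in Gli2R Tg and 7.49 in WT cells. The stimulated means were 7.22, 6.90 and 7.36 in the same order. Only the mean of 6.90 lay below the median gene level (7.06). In resting cells Ifng was lower in Gli2A Tg than in Gli2R Tg cells, with a difference of -2.74 ± 0.47 (adjusted p = 0.00685), and no ligand differed between Gli2A Tg and WT cells in either condition under the test. Ifnb1, the first type I interferon made in most infected cells, was at 5.37, 5.88 and 6.36 in resting Gli2A Tg against 5.04, 5.44 and 5.81 in resting WT cells, which overlap.

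Of 6 receptor chains, 1 rose and 4 fell in Gli2A Tg, 1 rose and 3 fell in Gli2R Tg and 1 rose and 4 fell in WT cells with stimulation. Ifnar2, a chain of the type I receptor, fell by 1.79, 1.69 and 1.31 in Gli2A Tg, Gli2R Tg and WT cells, Ifngr1 fell by 1.34, 1.13 and 1.47, and Ifngr2 rose by 1.65, 0.69 and 0.87. After stimulation Ifngr2 was higher in Gli2A Tg than in Gli2R Tg cells (1.36 ± 0.21, adjusted p = 0.0127), the one receptor chain to differ between genotypes. Of 5 kinases and complex members measured, 1 rose and 3 fell in Gli2A Tg, 1 rose and 3 fell in Gli2R Tg and 1 rose and 2 fell in WT cells. Jak2, which serves the interferon-gamma receptor, rose by 1.72, 1.88 and 2.17, and Jak1, shared by both receptors, fell by 1.85, 2.05 and 1.99. Irf9 fell by 0.68, 0.38 and 0.63. None of the 5 differed between genotypes in either condition under the test.

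Of 6 further interferon regulatory factors, Irf8, which myeloid and dendritic cells need and activated T cells also make, was the one that differed from WT. At rest it was higher in Gli2A Tg by 1.01 ± 0.20 (adjusted p = 0.0344) than in WT and by 1.02 ± 0.20 (adjusted p = 0.0144) than in Gli2R Tg cells. With stimulation it rose by 2.70 in Gli2A Tg, 3.96 in Gli2R Tg and 4.23 in WT cells. Irf7, the factor that amplifies type I interferon production and is itself interferon-inducible, was higher in resting Gli2A Tg than Gli2R Tg cells by 0.73 ± 0.17 (adjusted p = 0.0425). It rose with stimulation by 0.76 in Gli2R Tg and 1.00 in WT cells and did not pass in Gli2A Tg cells. Irf2, an antagonist of Irf1, fell by 2.41, 2.21 and 2.51 in Gli2A Tg, Gli2R Tg and WT cells. Of 6 inhibitors, 4 rose in Gli2A Tg, 3 in Gli2R Tg and 3 in WT cells, among them Socs1, which blocks the receptor kinases (1.81, 1.33 and 1.99).

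The interferon-gamma list held 10 measured GTPases and chemokines, of which 7 rose and 1 fell in Gli2A Tg, 7 rose and 1 fell in Gli2R Tg and 8 rose and 1 fell in WT cells. Cxcl10, a chemokine for activated T cells, rose by 2.94 in Gli2A Tg, 3.83 in Gli2R Tg and 4.56 in WT cells. Irgm2 and Iigp1, GTPases that act on pathogen vacuoles, rose by 1.14 and 1.46 in Gli2A Tg, by 1.42 and 1.15 in Gli2R Tg and by 1.59 in WT cells each. The chemokine Ccl5, the one that fell, went down by 2.64, 2.63 and 1.39. In resting Gli2A Tg against WT, 10 of these 10 were above 0 with a median of 0.36 and none passed the test, and in resting Gli2R Tg against WT 10 were above 0 with a median of 0.25, also with none past the test. Both share the WT arrays. Class I antigen presentation had 0 of 10 higher and 6 lower in Gli2A Tg, 3 lower in Gli2R Tg and 3 lower in WT cells. The immunoproteasome subunits Psmb8, Psmb9 and Psmb10 fell in each, Psmb8 by 1.55, 1.61 and 1.35. Among 9 adaptors and sensors upstream of interferon production, 1 rose and 4 fell in Gli2A Tg, 2 rose and 3 fell in Gli2R Tg and 2 rose and 4 fell in WT cells. Cgas, the DNA sensor, rose by 0.98, 1.64 and 1.83, and Sting1, its adaptor, fell by 2.07, 1.77 and 1.36.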

How the data were processed

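The deposited values are intensity values on a linear scale, 1 per probe set and array, made with the affy package per the submitters' processing notes, which give no version. Each array's 2% trimmed mean was 500, tested on the values. From these, log2(value + 16) was taken and quantile normalized across the 18 arrays. Of 45101 probe sets, 34945 carry 1 gene symbol in the platform annotation, 932 several and 9160 none, and 64 are controls. The brightest 1-symbol probe set stood for each of 18193 genes.

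Differences were fitted with limma 3.58.1 (lmFit, eBayes) in R 4.3.3 on all 18 arrays, which share 1 estimate of the spread. The 12 comparisons were each Benjamini-Hochberg adjusted over all genes, and the steps were tested on simulated data. Genes named are up to 8 per direction of those that passed, or else the 3 lowest p-values, and others named in the text were chosen after their values were seen. The members and lists were chosen with earlier results of these data known. The number of arrays limits the precision.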

Additional observations from a re-analysis of the deposited data

Results flagged for a closer look

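The stimulation effect differed between genotypes by the test of the difference itself for 3 results. Ifit1 differed by -2.70 (log2) in Gli2A Tg minus WT and by -2.34 in Gli2A Tg minus Gli2R Tg. Rsad2 differed by -3.83 in Gli2A Tg minus Gli2R Tg. Between these 2 genotypes Rsad2 differed by 3.64 at rest and by -0.19 after stimulation, so its value comes mostly from the resting cells. Resting and stimulated samples also differ in myeloid RNA, whose part was not tested. The Ifit1 call was lost in 4 of 28 alternative settings against WT and in 6 of 28 against Gli2R Tg. The 3 results use the same arrays as the simple comparisons and share the Gli2A Tg arrays among themselves.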

How the results depend on the processing

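Over the 63 named differences and 28 alternatives, 1658 of 1759 values stayed on the same side of the threshold, 79 lost the call, 22 gained it and 0 changed direction. Many of these alternatives leave a difference as it was and change only its p-value. They are leave-outs of arrays outside the comparison, the compared arrays alone, the replicate block and the genes above the median level. In those the direction was fixed in advance, so these totals do not measure stability. The counts of members called with stimulation, 17 in Gli2A Tg, 20 in Gli2R Tg and 26 in WT cells, stayed within 1.5 times of these values under every alternative run. The other counts were less stable, and the cause was not tested. At rest, Gli2A Tg against WT gave 5 members, but 0 on the compared arrays alone, 2 with a sex covariate (an alternative added once the data had been seen) and 3 to 5 without 1 array. Resting Gli2R Tg against WT gave 0, but 1 with a pseudocount of 64, 2 among genes above the median level, 2 without both arrays that stood apart and 0 to 2 without 1 array. Resting Gli2A Tg against Gli2R Tg gave 6, but 1 on the compared arrays alone and 3 to 6 without 1 array. After stimulation, Gli2A Tg against WT gave 0, but 2 with a pseudocount of 64, 3 among genes above the median level and 0 to 1 without 1 array. Stimulated Gli2A Tg against Gli2R Tg gave 0, but 2 with a pseudocount of 64, 2 among genes above the median level and 0 to 2 without 1 array. The effect in Gli2A Tg minus WT gave 1, but 7 with a pseudocount of 64, 8 among genes above the median level, 0 on the compared arrays alone, 0 without both arrays that stood apart and 0 to 2 without 1 array. The effect in Gli2A Tg minus Gli2R Tg gave 2, but 4 with a pseudocount of 64, 9 among genes above the median level, 1 without both arrays that stood apart, 1 with the sex covariate and 1 to 2 without 1 array. Stimulated Gli2R Tg against WT and the effect in Gli2R Tg minus WT gave 0 without each array in turn. Replicate numbers did not pair the samples: 27 correlations of same-numbered deviations were -0.06 to 0.10. With the replicate block, 17, 21 and 25 members were called with stimulation in Gli2A Tg, Gli2R Tg and WT cells, 4 at rest in Gli2A Tg against WT and 1 in Gli2R Tg against WT. Median centring shifted the median of all genes by up to 0.13 (stimulation in WT), and members' medians kept their sign. It gave members' medians of -0.21 in place of -0.36 for stimulation in Gli2A Tg, -0.27 in place of -0.11 for stimulated Gli2R Tg against WT and -0.13 in place of -0.22 for stimulated Gli2A Tg against Gli2R Tg.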
